A study of Mus musculus with 32 samples.

Results

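The glutathione transferases, glucuronosyltransferases and sulfotransferases are the enzymes of phase II metabolism, and their genes were taken from the array table by symbol, as every gene name that starts with Gst, Mgst, Ugt or Sult followed by a class letter and number. This gave 57 of the 21114 genes tested, 22 of them glutathione transferases, 19 glucuronosyltransferases and 16 sulfotransferases. Livers of male C57Bl/6J mice were measured on 32 Affymetrix Mouse Gene ST arrays, 1 per mouse. The parents of HF/HF offspring received a high-fat (HF) diet with 45% of its energy as fat, and the parents of LF/HF offspring a low-fat (LF) diet with 9%, starting 6 weeks before mating and lasting through pregnancy and suckling. All offspring, of both kinds, were weaned onto the HF diet, so no group ate the LF diet after weaning. There were 9 HF/HF and 9 LF/HF mice at 28 weeks of age, and 7 HF/HF and 7 LF/HF mice at 12 weeks. Both parents were on the diet, litters were not given, and p-values therefore measure the spread between mice that may be siblings.

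These enzymes attach a water-soluble group to drugs, toxins, bilirubin, steroids and products of lipid peroxidation, so that the liver can send them into bile or blood. Glutathione transferases join the tripeptide glutathione to reactive compounds, glucuronosyltransferases use UDP-glucuronate made from glucose, and sulfotransferases use the sulfate donor PAPS. Many of the genes respond to Nrf2, the transcription factor of the oxidative stress response, to the aryl hydrocarbon receptor or to the nuclear receptors CAR, PXR and PPARα, and several differ in level between male and female mouse livers.

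Motifs bound by 2 of these factors were looked for in the 250 bases before each gene start, in RefSeq sequence of GRCm38.p6, which held such a window for 50 of the 57 genes. The antioxidant response element core TGACNNNGC, the motif of Nrf2, was present on either strand in 4 of the 50 genes (8%), against 11.5% of all 27025 genes with a window. The 4 windows are printed in the direction of the gene, with the core in capitals, because 2 of the genes, Gsta3 and Gstm5, met the study criterion (an unadjusted P under 0.05 with a fold change over 1.2) in a comparison, and the other 2, Gstm7 and Mgst1, did not. They lie at chr1:21240434-21240502 on the plus strand, chr3:107895782-107895850 on the plus strand, chr3:107931705-107931773 on the minus strand and chr6:138140441-138140509 on the plus strand. In Mgst1 the core reads on the opposite strand.
Gsta3: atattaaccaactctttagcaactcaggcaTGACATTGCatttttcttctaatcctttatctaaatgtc
Gstm5: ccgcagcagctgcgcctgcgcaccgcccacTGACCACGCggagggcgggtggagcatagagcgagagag
Gstm7: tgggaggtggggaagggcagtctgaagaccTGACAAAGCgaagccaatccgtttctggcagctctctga
Mgst1: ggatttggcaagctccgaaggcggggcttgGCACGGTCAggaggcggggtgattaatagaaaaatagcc
The xenobiotic response element core GCGTG, the motif of the aryl hydrocarbon receptor, was present in 9 of the 50 genes (18%), against 30.9% of all genes. Gstm5, Mgst3, Sult1b1 and Sult1d1 hold it and met the criterion in a comparison, but are not printed for it. In the Gstm5 window above it reads on the opposite strand, within the marked antioxidant core. The xenobiotic core is shown, again in capitals, for 3 other genes that met the criterion in a comparison, at chr3:108018015-108018079 on the minus strand, chr19:4037913-4037955 on the minus strand and chr1:88165933-88165997 on the plus strand.
Gstm1: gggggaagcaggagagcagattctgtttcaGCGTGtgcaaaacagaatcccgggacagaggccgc
Gstp1: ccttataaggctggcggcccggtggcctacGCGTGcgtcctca
Ugt1a5: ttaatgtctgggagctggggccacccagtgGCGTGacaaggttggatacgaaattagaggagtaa
Both motifs were thus less frequent among the transferase windows than among all windows, and these matches describe the letters only.

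Values are log2 of the normalized array intensity, and levels are compared within a gene only. Of the 57 genes, 38 lay at or above the median level of all genes and 19 below it, among them all 6 SULT2 genes, the genes of SULT3, SULT4 and SULT6, and the estrogen sulfotransferase Sult1e1. The spread between mice of the same group differed widely among the genes. Its pooled SD was 0.095 for Mgst1, a membrane-bound glutathione transferase, and 0.127 for Gsta3, but 1.11 for Gstm3 and 0.995 for Ugt1a2, and its median was 0.265 over the 57 genes and 0.221 over all genes. Members of the Gstm, Gsta, Ugt2b and Sult2a clusters are close copies, the Ugt1a genes share exons, and Gstp1 has a near-identical neighbour, so a probe set may also read a relative of the gene it is named for.

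Before the comparisons, 3 facts about the arrays bear on them. The array names fall into 2 series of 16 arrays each, with all 4 groups in both, and values within each series are given below. The mean of 8 hepatocyte markers was between 12.46 and 12.66 in all mice. The mean of 5 skeletal muscle markers was 9.47 in LF/HF mouse 1 at 12 weeks, 6.36 in LF/HF mouse 8 at 28 weeks and 4.97 in HF/HF mouse 3 at 12 weeks, against at most 3.09 in the other mice. In the same 3 mice the mean of 5 stellate cell markers was the highest of their group, at 6.06, 5.90 and 6.34. Those markers include Des, which skeletal muscle also expresses, so the stellate and muscle means are not independent.

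At 12 weeks, the question was whether the parental HF diet changed expression of these genes in young adult offspring. Of the glutathione transferases 1 alpha-class and 3 mu-class genes, and of the sulfotransferases 1 gene, were higher in HF/HF than in LF/HF livers, while no glucuronosyltransferase met the study criterion, an unadjusted P under 0.05 with a fold change over 1.2. By this criterion 5 of the 57 genes (8.77%) were higher in HF/HF offspring and 0 were lower, against 2.92% of all genes tested in either direction, 1.45% higher and 1.47% lower. They were Gsta4, Gstm1, Gstm2, Gstm6 and Sult2a4, and no transferase and no other gene passed after Benjamini-Hochberg adjustment over all genes (limma), although 998 genes had an unadjusted P under 0.05. With the array series as a block the criterion was also met by 5 genes, against 3.01% of all genes. Of these 5, 4 were higher and 1 lower, the lower being Ugt2b38 at -0.30. With genes below the median level left out, 4 of the remaining 38 transferases met the criterion, against 3.52% of the genes kept. All 3 alpha and all 7 mu genes had a positive log2 fold change, with medians of 0.46 and 0.28, and 41 of the 57 genes were above 0 (71.9%), against 50.2% of all genes. No transferase separated the groups without overlap, which 0.0568% of all genes did. The median log2 fold change was 0.17 over the glutathione transferases, 0.06 over the sulfotransferases and 0.02 over the glucuronosyltransferases, against 0.0004 over all genes.

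Gsta4 encodes the transferase that removes 4-hydroxynonenal, a reactive aldehyde of lipid peroxidation. Its log2 level ran from 7.76 over a median of 8.51 to 9.38 in the 7 HF/HF mice, and from 7.89 over a median of 7.97 to 8.62 in the 7 LF/HF mice. The groups overlapped, 6 of 7 HF/HF mice were above the LF/HF mean, and both the lowest and the highest mouse were HF/HF. HF/HF minus LF/HF was 0.46 on the log2 scale (SE 0.18, 95% interval 0.10 to 0.82, adjusted p = 0.999 by limma). It no longer met the criterion without HF/HF mouse 3, where it was 0.33, and it was 0.67 within array series 1 and 0.17 within series 2.

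Gstm1 and Gstm2 encode mu-class transferases, which act on epoxides and quinones. Gstm2 had 6.78, 7.40 and 8.0 as lowest, median and highest log2 level in HF/HF livers, against 6.29, 7.06 and 7.27 in LF/HF livers. Of the HF/HF mice, 4 of 7 were above the highest LF/HF mouse, and 3 lay within the LF/HF range. For Gstm2 the log2 fold change was 0.47 (SE 0.17, 95% interval 0.12 to 0.83), and the criterion was met when each mouse was left out in turn. Within series 1 it was 0.92, but within series 2 it was 0.03, so the arrays of series 2 alone showed next to no difference. Gstm1 ran from 10.32 over 10.69 to 11.35 in HF/HF and from 10.23 over 10.43 to 10.84 in LF/HF livers. The groups overlapped, and 3 of 7 HF/HF mice were above all LF/HF mice. Its log2 fold change of 0.28 (SE 0.13, 95% interval 0.01 to 0.56) was 0.59 within series 1 and -0.07 within series 2. The call was lost when any 1 of 8 of the 14 mice was left out (HF/HF mice 2, 3 and 4 and LF/HF mice 1, 2, 3, 4 and 6). It was also lost with cyclic loess normalization (0.27), array weights (0.21), the array series as a block (0.27), the replicate number as a block, a fit of only the arrays compared, and without the mice with muscle markers (0.18).

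Gstm6, another mu-class gene of the same cluster, had a log2 level of 7.31, 7.67 and 8.05 as lowest, median and highest in HF/HF livers, against 6.94, 7.45 and 7.69 in LF/HF livers. Again 6 of 7 HF/HF mice were above the LF/HF mean and the groups overlapped. This made a log2 fold change of 0.31 (SE 0.12, 95% interval 0.07 to 0.55), with 0.52 within series 1 and 0.13 within series 2, and the criterion was lost without HF/HF mouse 2 or LF/HF mouse 2, with a lowest value of 0.24. Sult2a4, a sulfotransferase of the steroid class, was read at a level below the median of all genes, at 1.61, 1.83 and 2.79 in HF/HF and 1.25, 1.51 and 1.96 in LF/HF livers. HF/HF mouse 1 stood apart at the top, and without it the log2 fold change of 0.39 (SE 0.19, 95% interval 0.00 to 0.77) was 0.24. Within series 1 it was 0.53 and within series 2 0.19. That call was lost without any 1 of 8 of the 14 mice (HF/HF mice 1, 2 and 7 and LF/HF mice 1, 3, 4, 5 and 6), and also with cyclic loess (0.38), array weights (0.34) and without the mice with muscle markers (0.39).

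**Figure D1:**
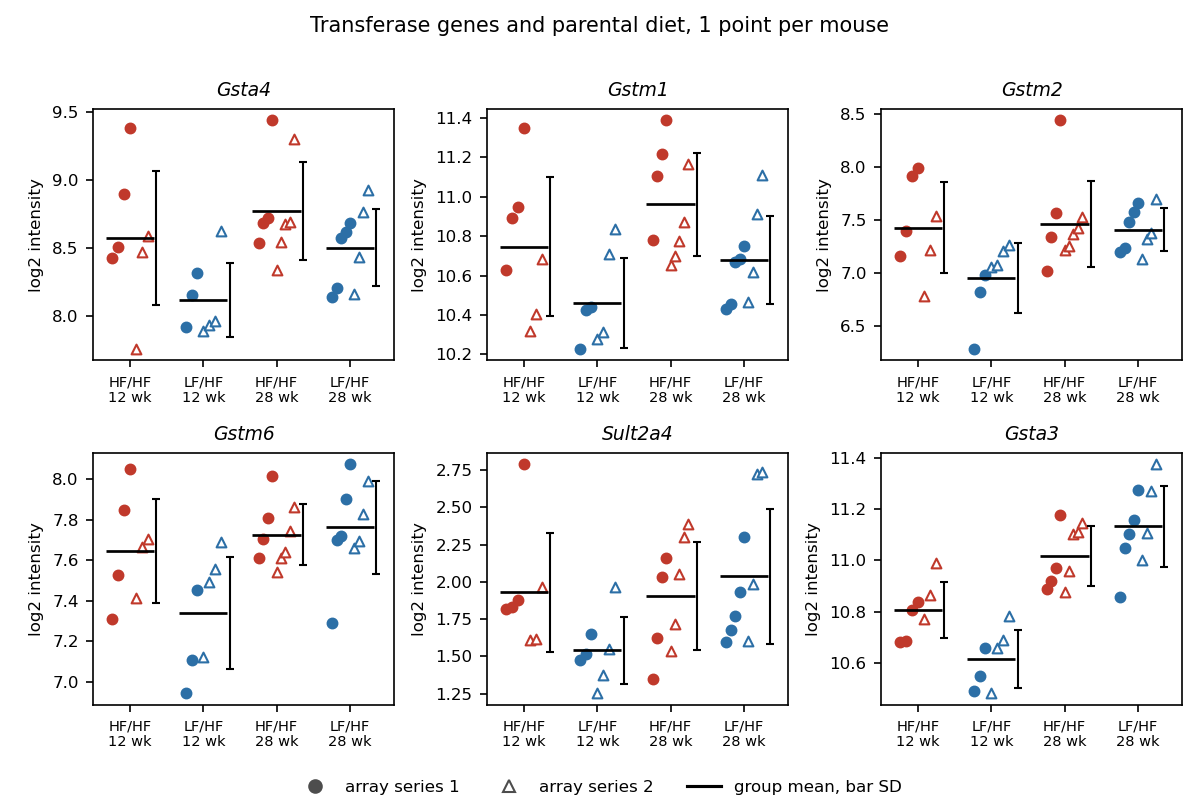
Log2 intensity (vertical axes, each gene on its own scale) of the 5 transferase genes that met the criterion at 12 weeks and of Gsta3, by group, with 1 point per mouse, filled circles for array series 1 and open triangles for series 2, a line at the mean and a bar for the SD. For Gstm1 and Gstm2 at 12 weeks the high HF/HF points are mostly circles, and no gene shown separates HF/HF from LF/HF mice fully.

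Gsta3, an alpha-class gene whose product detoxifies aflatoxin in mice, was the most even of the alpha genes. Its log2 level was 10.68, 10.81 and 10.99 as lowest, median and highest in HF/HF livers and 10.48, 10.66 and 10.78 in LF/HF livers. All 7 HF/HF mice were above the LF/HF mean, and 4 were above every LF/HF mouse. The difference of 0.19 on the log2 scale (SE 0.07, 95% interval 0.05 to 0.33) was under the fold threshold of the criterion. Some members varied too much between mice for a direction to be given. Gsta2 had 0.71 (95% interval -0.13 to 1.56), and Gstm3, both named here after their values were seen, had 0.30 (95% interval -0.80 to 1.40), with 1.39 in series 1 and -0.90 in series 2. Among highly expressed genes with narrow intervals, Mgst1 had 0.04 (95% interval -0.07 to 0.16) and Gstt1, a theta-class gene, -0.04 (95% interval -0.25 to 0.18).

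Of the glucuronosyltransferases, Ugt1a1, which conjugates bilirubin, ran from 9.78 over 10.45 to 10.86 in HF/HF and from 10.23 over 10.55 to 10.84 in LF/HF livers at 12 weeks. Its log2 fold change was -0.08 (95% interval -0.33 to 0.17). In the UGT2B family, whose products act on steroids and bile acids, Ugt2b38 was at -0.27 (SE 0.15, 95% interval -0.57 to 0.03) and Ugt2b1 at 0.06 (95% interval -0.14 to 0.26). The 7 UGT2B genes split into 4 above and 3 below 0. Of the SULT1 family, which acts on phenols, catecholamines and thyroid hormone, 5 of 6 genes were above 0 with a median of 0.15, and none met the criterion.

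Values within the array series and without single mice bear on this comparison, but they are not separate checks. Matched by their values, HF/HF mouse 3 and LF/HF mouse 1 of 12 weeks, both with raised muscle markers, lay in series 1. Over the 10 alpha and mu genes, the median log2 fold change was 0.60 in series 1, where all 10 were above 0, and 0.05 in series 2, where 6 were. Over all 57 genes 41 were above 0 in series 1 (71.9%, against 51.4% of all genes), with a median of 0.09. In series 2 it was 40 (70.2%, against 49% of all genes), with a median of 0.05. HF/HF mouse 3, one of the 3 mice with raised muscle markers, was the highest HF/HF mouse for 8 of the 22 glutathione transferases and for 17.6% of all genes. Without those 3 mice, 3 of the 57 genes met the criterion at 12 weeks, all higher in HF/HF offspring (Gsta4, Gstm2 and Gstm6), against 556 of all genes (2.63%). The mean of 5 endothelial markers also moved with the groups, at 6.22 to 6.45 in HF/HF and 6.47 to 6.81 in LF/HF livers with no overlap and with 0 of the 5 below the median level of all genes. Its part in the result was not tested, and a lower share of a cell type cannot be told apart from less RNA per cell.

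**Figure D2:**
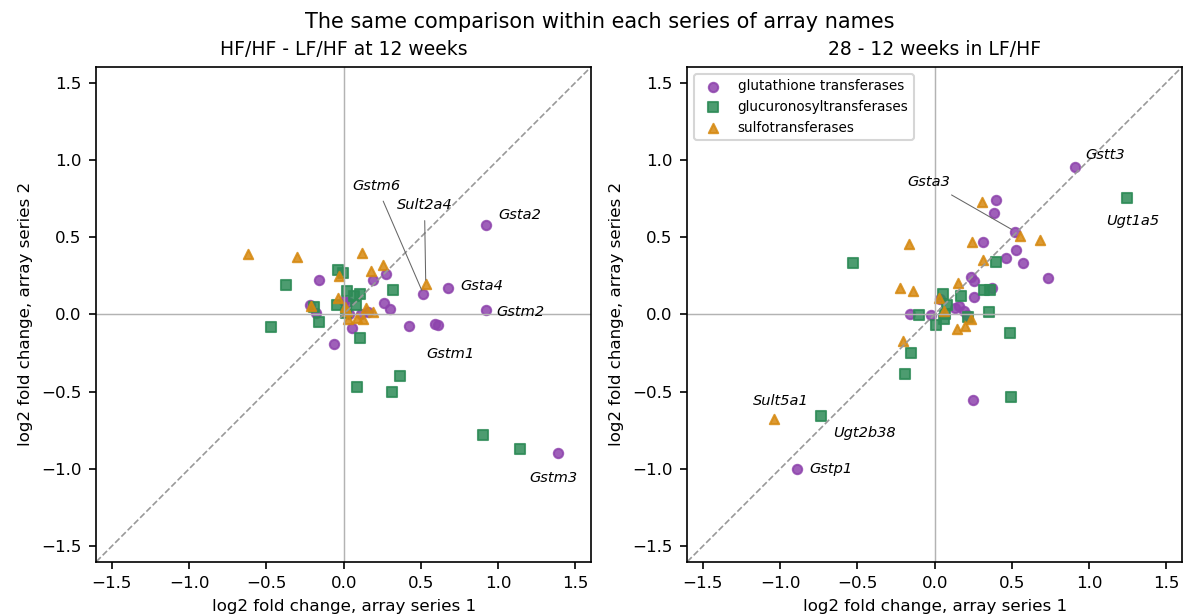
Log2 fold change of each of the 57 genes within array series 1 (horizontal) and series 2 (vertical), for HF/HF minus LF/HF at 12 weeks (left) and for 28 minus 12 weeks in LF/HF offspring (right), with the dashed line marking equal values. At 12 weeks Gstm1 and Gstm2 lie at 0.59 and 0.92 in series 1 but at -0.07 and 0.03 in series 2, whereas for age Gstp1, Ugt2b38, Gstt3 and Ugt1a5 lie on the same side of 0 in both.

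At 28 weeks, the same comparison asked whether the difference by parental diet was present in older offspring. Of the 57 genes, 1 (1.75%) met the criterion, against 2.15% of all genes tested (0.961% higher), and no gene passed after adjustment, with 1083 genes at an unadjusted P under 0.05. That gene was Gstm1, which ran from 10.65 over 10.87 to 11.39 in the 9 HF/HF livers and from 10.43 over 10.67 to 11.11 in the 9 LF/HF livers. The groups overlapped, 8 of 9 HF/HF mice were above the LF/HF mean, and 3 were above every LF/HF mouse. Its log2 fold change was 0.28 (SE 0.12, 95% interval 0.04 to 0.53, adjusted p = 0.935 by limma), with 0.53 within series 1 and 0.06 within series 2. It lost the criterion without any 1 of 6 of the 18 mice (HF/HF mice 1, 3 and 7 and LF/HF mice 3, 5 and 9), and the value without them stayed between 0.23 and 0.34. Over all 57 genes 25 were above 0 (43.9%, against 48.7% of all genes), and the median was -0.01. Without the 3 mice with muscle markers, 4 of the 57 genes met the criterion at 28 weeks, 3 higher and 1 lower in HF/HF offspring, against 708 of all genes (3.35%).

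Sult1e1, which sulfates estrogens, was read at a low level, at 1.66, 1.77 and 2.21 in HF/HF and 1.34, 1.59 and 1.82 in LF/HF livers at 28 weeks. All 9 HF/HF mice were above the LF/HF mean, and the log2 fold change was 0.25 (SE 0.08, 95% interval 0.09 to 0.40, adjusted p = 0.935 by limma), just under the fold threshold. The gene with the highest fold change was Ugt1a2, at 0.82 (95% interval -0.05 to 1.70). Gstp1 was at 0.31 (SE 0.18, 95% interval -0.05 to 0.67), with 10.38, 11.14 and 11.49 in HF/HF and 9.56, 10.78 and 11.43 in LF/HF livers, so its LF/HF mice spread further down.

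The difference between the ages in the diet effect was tested directly, as the 28-week difference minus the 12-week difference. Of the 57 genes, 4 (7.02%) met the criterion, all 4 with a negative value, against 4.19% of all genes tested (2.27% negative), and no gene passed after adjustment, with 1009 at an unadjusted P under 0.05. For Gsta3 this value was -0.31 (SE 0.09), for Gstm6 -0.34 (SE 0.16), for Gstm5 -0.40 (SE 0.19) and for Sult2a4 -0.52 (SE 0.25), each with an adjusted p of 0.974 (limma). Within series 1 and series 2 it was -0.29 and -0.37 for Gsta3, -0.47 and -0.24 for Gstm6, -0.52 and -0.28 for Gstm5, and -0.60 and -0.46 for Sult2a4. Gstm1, which met the criterion at both ages, had a value of -0.0003 (95% interval -0.37 to 0.36). At 28 weeks Gsta3 lay at 10.88, 10.97 and 11.18 in HF/HF and 10.86, 11.11 and 11.37 in LF/HF livers, a log2 fold change of -0.12 (SE 0.06, 95% interval -0.24 to 0.01), opposite in sign to that at 12 weeks. Leaving out single mice never ended the call of Gsta3, whose values stayed between -0.34 and -0.28. It ended that of Gstm6 in 8 of 32 cases (at 28 weeks HF/HF mouse 5 and LF/HF mice 3 and 8, at 12 weeks HF/HF mice 2 and 4 and LF/HF mice 1, 2 and 4). It ended that of Gstm5 in 12 cases (at 28 weeks HF/HF mice 1, 6 and 7 and LF/HF mice 5, 6 and 7, at 12 weeks HF/HF mice 3, 4 and 5 and LF/HF mice 3, 6 and 7). It ended that of Sult2a4 in 16 cases (at 28 weeks HF/HF mice 1, 2, 5 and 7 and LF/HF mice 1, 6, 7 and 9, at 12 weeks HF/HF mice 1, 2 and 7 and LF/HF mice 1, 3, 4, 5 and 6). Without the 3 mice with muscle markers 4 genes met the criterion, 3 of them among these 4, and Gstm6 did not, against 953 of all genes (4.51%). Across the 57 genes 18 were above 0 and 39 below, against 49.2% of all genes above 0. Both diet comparisons enter this value, so it adds no independent evidence for either.

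From 12 to 28 weeks, the question was how the genes changed with age on the HF diet, in each parental group. The older mice had also eaten that diet for longer since weaning, so age and time on the diet cannot be told apart. In both parental groups the theta-class genes Gstt2 and Gstt3 and Ugt1a5 were higher at 28 weeks, and the pi-class gene Gstp1, Ugt2b38 and Sult5a1 were lower. In LF/HF offspring alpha, mu and SULT1 genes met the criterion upwards as well. In LF/HF offspring 17 of the 57 genes (29.8%) met the criterion, 14 higher and 3 lower at 28 weeks, against 7.22% of all genes tested, 3.31% higher and 3.92% lower. After adjustment over all genes 3 of the 57 passed, against 0.786% of all genes. In HF/HF offspring 7 of the 57 genes (12.3%) met it, 3 higher and 4 lower, against 4.1% of all genes, 1.76% higher and 2.33% lower. After adjustment 0 of the 57 passed (limma), against 0.0474% of all genes. At an unadjusted P under 0.05 there were 11 of the 57, against 1520 of the 21114 genes tested. The background was larger among better expressed genes. With genes below the median level left out, 16 of the remaining 38 transferases met the criterion in LF/HF offspring, against 11.3% of the genes kept. In HF/HF offspring 7 of the 38 did, against 5.65%. In HF/HF offspring 41 of the 57 genes were above 0 (71.9%, against 51.2% of all genes), and in LF/HF offspring 43 (75.4%, against 53.3%). Leaving out the mice with muscle markers gave 8 genes for HF/HF mice, against 906 of all genes (4.29%), and 18 for LF/HF mice, against 1759 of all genes (8.33%). The mean of the 5 endothelial markers was 5.98 to 6.33 (median 6.14) at 28 weeks and 6.22 to 6.45 (median 6.35) at 12 weeks in HF/HF livers, and 5.89 to 6.53 (median 6.31) against 6.47 to 6.81 (median 6.54) in LF/HF livers. It thus had a lower median at 28 weeks in both parental groups with overlapping ranges, and its part in the age changes was not tested. Of the HF/HF list, 6 genes (85.7% of 7) were also in the LF/HF list (35.3% of 17) with the same direction, whereas over all genes 27.6% of the HF/HF list and 15.7% of the LF/HF list were shared. The 6 were Gstp1, Gstt2, Gstt3, Sult5a1, Ugt1a5 and Ugt2b38, and the 2 age comparisons use different mice.

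**Figure D3:**
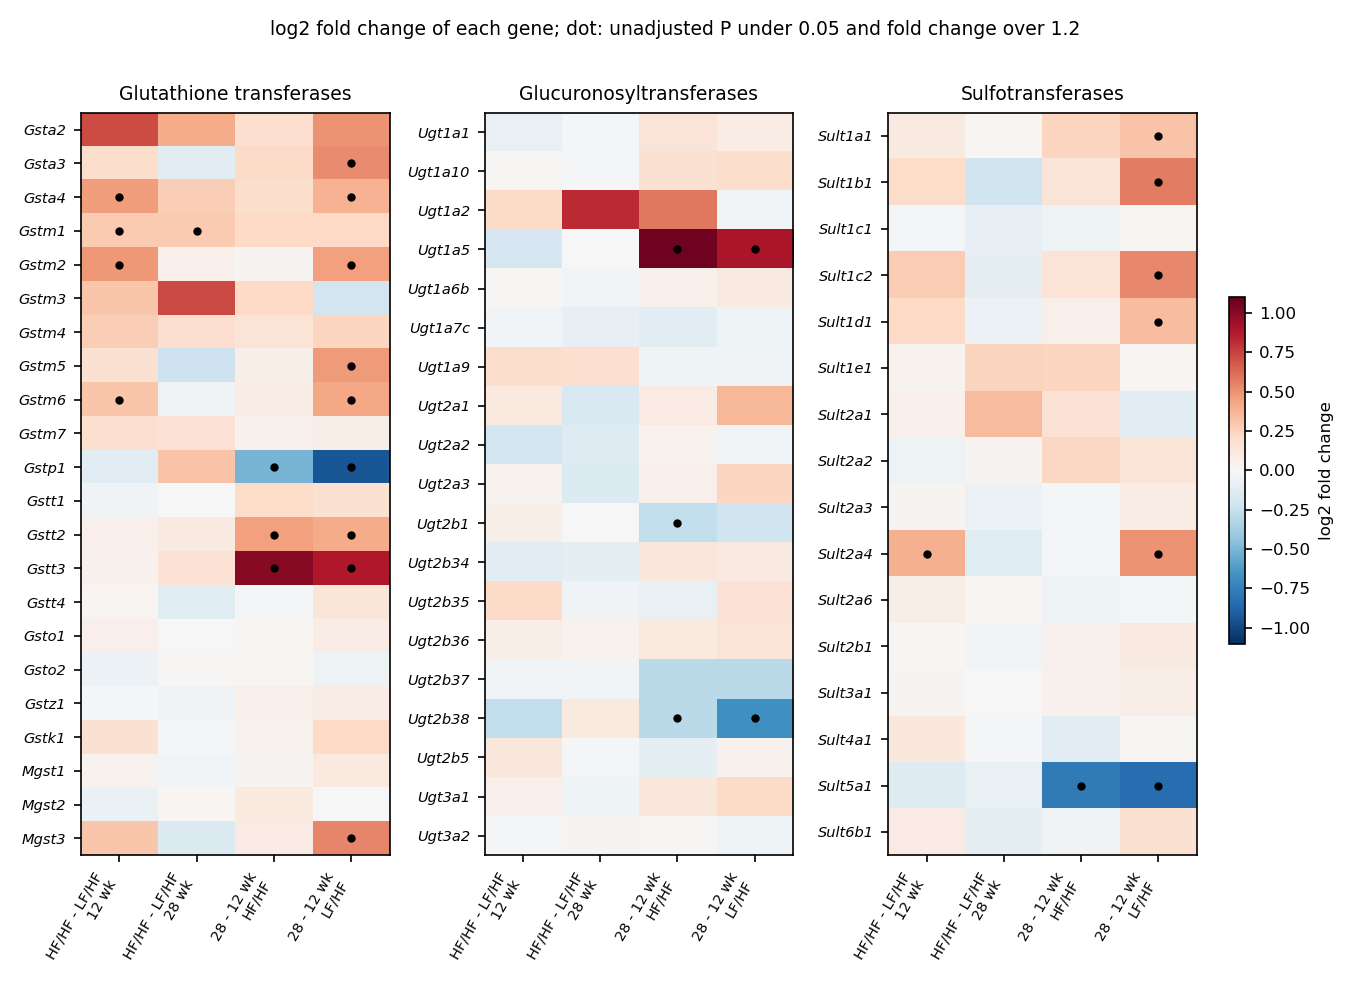
Log2 fold change (colour) of each of the 57 genes in 4 comparisons, HF/HF minus LF/HF for the younger and the older mice, then 28 minus 12 weeks for HF/HF and for LF/HF mice, by enzyme class, with a dot where the criterion was met. The 4 comparisons carry 5, 1, 7 and 17 dots in that order over the 3 classes together, and 14 of the 17 are positive.

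Gsta3 separated the ages in LF/HF offspring without overlap, the only one of the 57 genes to do so there (0.332% of all genes did), and none of the 57 did so in HF/HF offspring (0.0758% of all genes did). Its log2 level was 10.86, 11.11 and 11.37 as lowest, median and highest at 28 weeks and 10.48, 10.66 and 10.78 at 12 weeks. The difference was 0.52 on the log2 scale (SE 0.07, adjusted p = 4.66e-05 by limma), or 1.43-fold. It was 0.52 within series 1 and 0.54 within series 2, where with fewer mice the adjusted p was 0.127 and 0.0658 (range over all alternatives 6.03e-06 to 0.127). In HF/HF offspring Gsta3 was 10.88, 10.97 and 11.18 at 28 weeks against 10.68, 10.81 and 10.99 at 12 weeks. All 9 older mice were above the mean of the younger, and the log2 fold change was 0.21 (SE 0.07, 95% interval 0.08 to 0.34, adjusted p = 0.372 by limma), under the fold threshold.

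Other alpha and mu genes met the criterion for age in LF/HF offspring only, where the difference between the parental groups was tested for each. Gsta4 at 0.39, Gstm2 at 0.45, Gstm5 at 0.47 and Gstm6 at 0.42 met the criterion there, while the same 4 genes were at 0.20, 0.03, 0.07 and 0.08 in HF/HF offspring. The difference between the 2 age changes is the same quantity as the difference between the ages in the diet effect, so of these 4 it met the criterion for Gstm5 and Gstm6. It did not for Gstm2, at -0.42 (95% interval -0.89 to 0.05), or for Gsta4, at -0.19 (95% interval -0.67 to 0.29). Gstm5 was at 5.03, 5.43 and 5.80 at 28 weeks and 4.61, 4.95 and 5.61 at 12 weeks in LF/HF livers, and all 9 older mice were above the mean of the younger. Mgst3, a microsomal transferase with peroxidase activity, had 0.09 (SE 0.19) in HF/HF offspring, and 0.54 (SE 0.19) in LF/HF offspring. Its highest LF/HF value was 5.99 at 28 weeks against 6.03 at 12 weeks, the second in mouse 1, which had muscle markers. The call of Gsta4 was lost without any 1 of 6 of the 16 LF/HF mice (12-week mice 3, 4, 6 and 7 and 28-week mice 6 and 8), with values from 0.33 to 0.47.

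Of the 4 theta-class genes, Gstt2 and Gstt3 were higher at 28 weeks in both parental groups. Gstt3 ran from 5.96 over 6.34 to 7.16 at 28 weeks and from 4.36 over 5.35 to 6.23 at 12 weeks in HF/HF livers. All 9 older mice were above the mean of the younger, and HF/HF mouse 2 stood highest. In LF/HF livers Gstt3 ran from 5.74 over 6.13 to 6.76 at 28 weeks and from 4.64 over 5.29 to 5.78 at 12 weeks, with 8 of 9 older mice above every younger one. Gstt3 thus had a log2 fold change of 1.0 (SE 0.23, adjusted p = 0.129 by limma) in HF/HF and 0.88 (SE 0.23, adjusted p = 0.0611) in LF/HF offspring. It was 1.24 and 0.76 in HF/HF mice, and 0.91 and 0.95 in LF/HF mice, within series 1 and series 2. Gstt2 had 0.45 (SE 0.15) in HF/HF offspring, and 0.41 (SE 0.15) in LF/HF offspring, where it was 0.46 within series 1 and 0.36 within series 2 and met the criterion in neither alone. Gstt1 had 0.21 (SE 0.10) in HF/HF and 0.16 (SE 0.10) in LF/HF offspring, both under the fold threshold.

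Gstp1, the pi-class gene that male mouse livers express more strongly than female ones, was lower at 28 weeks in both parental groups. In LF/HF livers its log2 level was 9.56, 10.78 and 11.43 as lowest, median and highest at 28 weeks, against 11.38, 11.61 and 11.78 at 12 weeks. Of the older mice, 8 of 9 were below every younger mouse, and their SD was 0.61 against 0.14 in the younger. On the log2 scale the change was -0.94 (SE 0.19, adjusted p = 0.00785 by limma), or 1.92-fold lower, with -0.89 within series 1 and -1.0 within series 2. Within the series alone the adjusted p was 0.19 and 0.474 (range over all alternatives 0.00267 to 0.474). In HF/HF livers Gstp1 was at 10.38, 11.14 and 11.49 at 28 weeks against 11.28, 11.45 and 11.81 at 12 weeks, with 7 of 9 older mice below every younger one. The change was -0.51 (SE 0.19, adjusted p = 0.474), -0.64 within series 1 and -0.37 within series 2, and the difference between the parental groups was 0.43 (95% interval -0.11 to 0.97).

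**Figure D4:**
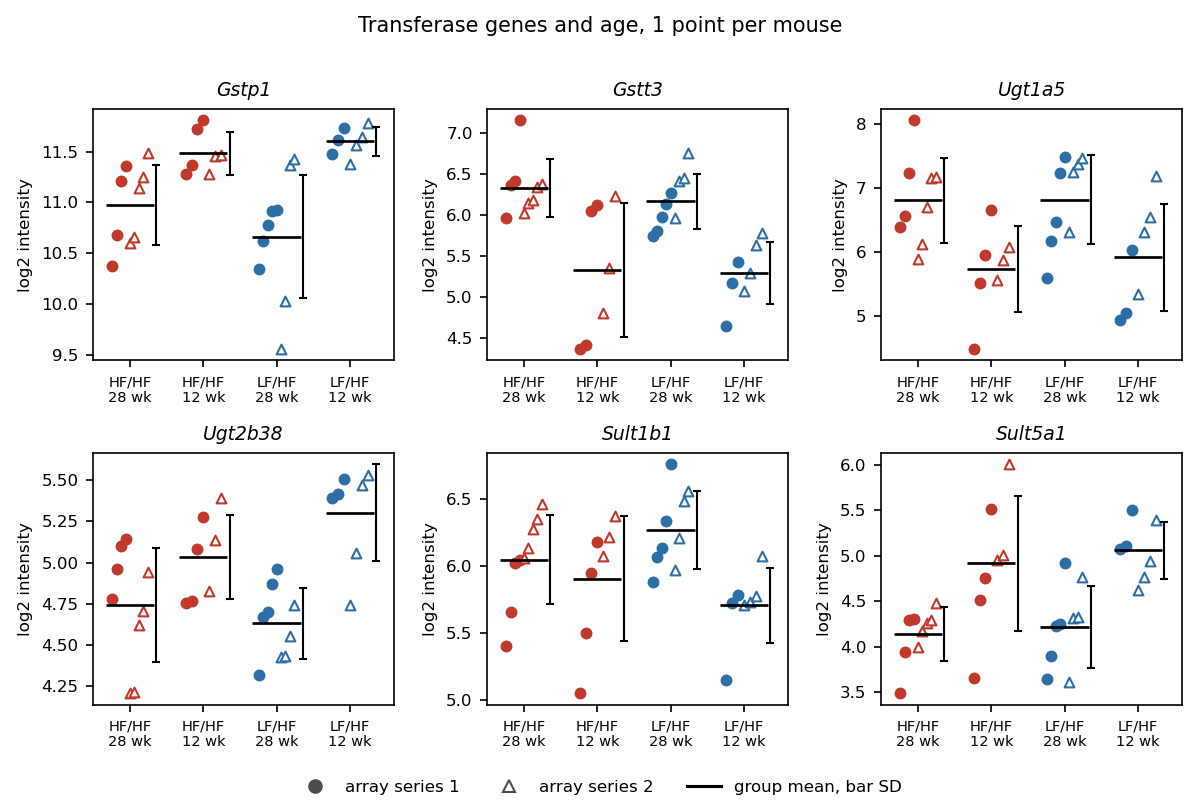
Log2 intensity (vertical axes, each gene on its own scale) of 6 transferase genes that met the criterion between the ages in at least LF/HF offspring, with 28 weeks left of 12 weeks within each parental group, 1 point per mouse, symbols for the array series, a line at the mean and a bar for the SD. Gstp1, Ugt2b38 and Sult5a1 sit lower and Gstt3, Ugt1a5 and Sult1b1 higher at 28 weeks, and Gstp1 in LF/HF mice spreads from 9.56 to 11.43 at 28 weeks.

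Among the glucuronosyltransferases, Ugt1a5 was higher and Ugt2b38 lower at 28 weeks in both parental groups, Ugt2b1 was lower in HF/HF offspring, and the median log2 fold changes of UGT1A, UGT2A, UGT2B and UGT3A lay between -0.10 and 0.24. Ugt1a5 was at 5.89, 6.70 and 8.05 at 28 weeks and 4.49, 5.88 and 6.66 at 12 weeks in HF/HF livers, and at 5.60, 7.24 and 7.48 against 4.94, 6.04 and 7.18 in LF/HF livers. Both pairs of groups overlapped, with 5 of 9 older HF/HF mice and 5 of 9 older LF/HF mice above every younger mouse of their kind. The log2 fold changes were 1.07 (SE 0.33, adjusted p = 0.353) in HF/HF and 0.90 (SE 0.33, adjusted p = 0.228 by limma) in LF/HF offspring. Within series 1 and series 2 they were 1.40 and 0.77 in HF/HF mice, and 1.25 and 0.75 in LF/HF mice. Ugt2b38 in LF/HF livers was at 4.32, 4.67 and 4.96 at 28 weeks against 4.74, 5.42 and 5.53 at 12 weeks, a log2 fold change of -0.67 (SE 0.14, adjusted p = 0.00991 by limma). It was -0.74 within series 1 and -0.66 within series 2, with an adjusted p of 0.187 and 0.409 in each series alone (range over all alternatives 0.00322 to 0.409). All 9 older mice were below the mean of the younger. In HF/HF offspring it was -0.29 (SE 0.14, adjusted p = 0.661), but 0.02 within series 1 and -0.58 within series 2, and the call was lost without any 1 of 8 of 16 mice (12-week mice 1, 3, 6 and 7 and 28-week mice 5, 6, 7 and 8). Ugt2b1 had -0.27 (SE 0.09, adjusted p = 0.42) in HF/HF and -0.22 (SE 0.09, adjusted p = 0.324) in LF/HF offspring, the second under the fold threshold, and the HF/HF call was lost without any 1 of 6 of 16 mice (12-week mice 4, 6 and 7 and 28-week mice 1, 2 and 5), with values from -0.34 to -0.23.

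In the SULT1 family 4 of 6 sulfotransferases were higher at 28 weeks in LF/HF offspring by the criterion and all 6 were above 0, with a median log2 fold change of 0.32. Sult1b1, which sulfates phenols and thyroid hormone, was at 5.88, 6.21 and 6.76 at 28 weeks and 5.15, 5.73 and 6.08 at 12 weeks. Of the older mice 6 of 9 were above every younger mouse, and LF/HF mouse 1, the one with muscle markers, was the lowest of the younger mice. Its log2 fold change was 0.56 (SE 0.16, adjusted p = 0.109 by limma), 0.68 within series 1 and 0.48 within series 2. Sult1c2 had 0.53 (SE 0.15), Sult1d1, which acts on catecholamines, 0.34 (SE 0.12) and Sult1a1, the main phenol sulfotransferase, 0.31 (SE 0.10). In HF/HF offspring the SULT1 median was 0.15 and none of the 6 met the criterion, with Sult1a1 at 0.23 (SE 0.10), under the fold threshold. For Sult1b1, Sult1c2 and Sult1d1 the difference between the parental groups was -0.42 (95% interval -0.89 to 0.05), -0.37 (95% interval -0.79 to 0.04) and -0.29 (95% interval -0.62 to 0.05), none by the criterion. Sult2a4 met the criterion in LF/HF offspring at 0.50 (SE 0.18, adjusted p = 0.215), again at a low level.

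Sult5a1 was the sulfotransferase with the lowest value in both age comparisons. In HF/HF livers it was at 3.49, 4.26 and 4.48 at 28 weeks and 3.65, 4.95 and 6.00 at 12 weeks, and in LF/HF livers at 3.61, 4.25 and 4.92 against 4.62, 5.07 and 5.50. All 9 older mice were below the mean of the younger in both parental groups. The log2 fold changes were -0.78 (SE 0.22, adjusted p = 0.295) in HF/HF and -0.84 (SE 0.22, adjusted p = 0.0639 by limma) in LF/HF offspring, and neither was lost when single mice were left out. Within series 1 and series 2 they were -0.60 and -1.08 in HF/HF mice, and -1.04 and -0.68 in LF/HF mice. The HF/HF call was lost in series 1 alone. The SULT2 and SULT3 genes taken by symbol were read at low levels at both ages, among them Sult2a1 and Sult3a1, which female mouse livers express strongly. Sult2a1 was at 1.24 to 2.96 at 28 weeks and 1.28 to 2.76 at 12 weeks over both parental groups. Sult2a8, whose name in the array table did not match the rule, was at a mean log2 level of 9.94.

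Genes that supply or control these enzymes were described from lists, in which the counts at 12 weeks stand against 2.92% of all genes. Of 10 Nrf2 targets outside the families, 8 were above 0 at 12 weeks (median 0.22) and 1 met the criterion, Nqo1, a quinone reductase, at 0.65 (SE 0.24, 95% interval 0.16 to 1.13). Nqo1 was at 3.45, 3.92 and 5.27 in HF/HF and 2.88, 3.27 and 4.30 in LF/HF livers, and it was 0.91 within series 1 and 0.35 within series 2. Of 15 genes of glutathione supply 1 met the criterion, Cth, the enzyme that makes cysteine from cystathionine, at 0.41 (SE 0.11, adjusted p = 0.845 by limma), with 0.51 and 0.33 in the 2 series. Of 9 genes of UDP-glucuronate supply 1 met it, Ugdh, which makes UDP-glucuronate, at 0.45 (SE 0.16, adjusted p = 0.999), and of 8 measured genes of PAPS supply none did. None of 12 efflux transporters, 16 receptors and regulators and 5 targets of the aryl hydrocarbon receptor met it at 12 weeks. Of those 5 targets 1 was above 0 (median -0.09). Of 9 targets of CAR and PXR 6 were above 0 (median 0.26), against 50.2% of all genes, and 1 met the criterion, Cyp2c55, a cytochrome P450. Cyp2c55 was at 0.76 (SE 0.20, adjusted p = 0.845 by limma), with 1.08 within series 1 and 0.42 within series 2. No single mouse left out ended that call. Of 11 measured male-predominant genes 8 were below 0 (median -0.25) and 1 met the criterion downwards, Nudt7 at -0.38 (SE 0.14), which did not meet it without HF/HF mouse 3 or within series 1 alone, and of 12 measured female-predominant genes none did. Nqo1 and Ugdh did not meet the criterion without the 3 mice with muscle markers, and Cth did. At 28 weeks 8 of the 10 Nrf2 targets were again above 0 (median 0.09), against 48.7% of all genes. Of the 9 CAR and PXR targets 2 were (median -0.08). No gene of either list met the criterion at 28 weeks.

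Members of the lists of sex-biased liver genes and of CAR and PXR targets also met the criterion between the ages, where it was met by 4.1% of all genes in HF/HF offspring (1.76% upwards, 2.33% downwards) and 7.22% in LF/HF offspring (3.31% upwards, 3.92% downwards). Of 11 measured male-predominant genes 10 were below 0 at 28 against 12 weeks in HF/HF offspring (median -0.21), 2 by the criterion, and 10 in LF/HF offspring (median -0.445), 7 by the criterion. Of 12 measured female-predominant genes 9 were above 0 in HF/HF offspring (median 0.26), 5 by the criterion, and 11 in LF/HF offspring (median 0.20), 3 by the criterion. Of 9 targets of CAR and PXR 3 met the criterion upwards in HF/HF mice, and 5 did so in LF/HF mice, while of 5 targets of the aryl hydrocarbon receptor 0 met it in either. Cyp2b9, which is also in the female-predominant list, was at 2.22 (SE 0.64) in HF/HF offspring, and 3.56 (SE 0.64) in LF/HF offspring. Their part in the age changes of Gstp1, Ugt2b38 and Ugt1a5 was not tested.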

How the data were processed

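RNA of 32 livers was hybridized to Affymetrix Mouse Gene ST arrays. The authors normalized the signals by the robust multichip average and deposited linear intensities per probe set, which were taken to log2 here. Of 21115 probe sets, 2 shared a gene name and the brighter was kept. The deposited table also holds the authors' own fold changes, p-values and q-values, which were not used. The 2 deposited tables differed by at most 7.15e-10 on the log2 scale, and 0 columns belonged to other samples. The genome build and probe annotation version are not given in the sources used here.

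Group means were fitted to all 32 arrays with limma 3.58.1 (R 4.3.3; lmFit, contrasts, eBayes with intensity trend, two-sided), over 21114 genes, with Benjamini-Hochberg adjustment over all of them. A gene was called where P was under 0.05 before adjustment and the fold change over 1.2, as in the study. The study used an intensity-based moderated test whose pairs the labels do not give, so that limma's trended prior stands in for it. No depth applies to arrays, and the number of mice limits the precision. The method was tested on simulated arrays.

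Members and lists were chosen with earlier results of these data known. Genes were named by rule: members that met the criterion (the 12 of smallest p at most per comparison), the highest-level member and the member of smallest p in each diet comparison per family, and up to 3 genes of each other list per diet comparison plus those that met the criterion. Gsta2, Gstm3 and Gstm7 were named after their values were seen. Alternatives were the prior, samples, replicate block, low-level filter, cyclic loess, array weights, thresholds, array series and leaving out each mouse. Promoter windows came from RefSeq (GRCm38.p6).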

Additional observations from a re-analysis of the deposited data

Results flagged for a closer look

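The search for outlying mice covered only the members named by the rule, each in every group. In 8 of 156 groups tested, 1 mouse lay far from the others of its group. That number is close to the 1 in 20 that chance gives for independent tests, but these genes share the same mice. Other members, such as Ugt1a9 and Gstm3, were not tested. At 28 weeks, HF/HF mouse 3 had 9.67 for Gstk1 (next mouse 9.39) and 8.45 for Gstm2 (next 7.57), and HF/HF mouse 2 had 7.16 for Gstt3 (next 6.41). At 12 weeks, HF/HF mouse 1 had 2.79 for Sult2a4 (next 1.97) and HF/HF mouse 3 had the lowest Ugt2a3, 9.23 (next 9.55). Among LF/HF mice of 12 weeks, mouse 1 had the lowest Sult1b1, 5.15 (next 5.71), mouse 6 had 2.24 for Sult2b1 (next 1.83) and mouse 2 had 1.62 for Sult3a1 (next 1.40). HF/HF mouse 3 at 28 weeks was the highest of its group for 9 of the 22 glutathione transferases, against 11% of all genes. LF/HF mouse 8 at 28 weeks, which carried muscle markers, was so for 9 of 22, against 9.67% of all genes.

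For 4 genes the diet effect differed between 28 and 12 weeks by the criterion, at -0.31 for Gsta3, -0.40 for Gstm5, -0.34 for Gstm6 and -0.52 for Sult2a4, none after adjustment over all genes (limma, 884 genes by the criterion, 1009 at an unadjusted P under 0.05).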

How the results depend on the processing

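Percentages in brackets are the share of all genes that met the criterion in the same setting. At 12 weeks the criterion was met by 5 of the 57 genes (2.92%). It was met by 3 with cyclic loess (2.93%), 3 with array weights (3.24%) and 0 at P under 0.01 (0.848%). With array series as a block 5 met it (3.01%), 4 of them among the first 5, without Gstm1 and with Ugt2b38, which was lower. In series 1 alone 8 did, 7 higher and 1 lower (4.06%). In series 2 alone 2 did, 1 higher and 1 lower, 0 of them among the 5 (3.72%). Without the mice with muscle markers, a choice made after seeing the data, 3 did (2.63%). Leaving out single mice gave 2 to 7, against 565 to 792 of all genes, with 2 without HF/HF mouse 2 and 3 without LF/HF mouse 2 or 3. At 28 weeks the criterion was met by 1 gene (2.15%), and by 2 with only the arrays compared (2.24%). It was met by 2 with the fold threshold at 1.1 (5.02%) and 0 at P under 0.01 (0.691%). With array series as a block 2 met it (2.24%), in series 1 alone 2 (5.31%) and in series 2 alone 0 (3.77%). Without the mice with muscle markers 4 did (3.35%). When single mice were left out 0 to 4 did, against 398 to 656 of all genes. The count was 0 without HF/HF mouse 1, 3 or 7 or LF/HF mouse 3, and 4 without HF/HF mouse 2. The count was 3 without HF/HF mouse 8 or 9 or LF/HF mouse 8. The difference between the ages gave 4 genes (4.19%), 1 at P under 0.01 (0.791%) and 2 in series 1 alone (4.24%). It gave 2 to 6 when single mice were left out, against 779 to 1056 of all genes. The count was 2 without HF/HF mouse 1 or LF/HF mouse 6 or 7 of 28 weeks. It was also 2 without HF/HF mouse 2 or 4 or LF/HF mouse 3 or 4 of 12 weeks. In HF/HF offspring age gave 7 genes (4.1%) and 11 with a fold threshold of 1.1 (7.09%). Age gave 5 to 9 there when single mice were left out, against 812 to 998 of all genes. In LF/HF offspring age gave 17 (7.22%), with 14 in series 1 (8.1%) and 13 in series 2 (6.06%). Age gave 16 to 20 there when single mice were left out, against 1302 to 1874 of all genes. The value of Gstm1 at 12 weeks changed sign, to -0.0657 in series 2 alone, and that of Ugt2b38 over age in HF/HF mice, to 0.0234 in series 1 alone, and the cause was not tested. Same-numbered mice did not deviate together (correlation -0.16 to 0.11 at 12 weeks and -0.10 to 0.10 at 28 weeks). Paired mice need not deviate together, so this cannot show whether the numbers pair them, and the labels do not say. With the replicate block, 4 genes met the criterion at 12 weeks (2.98%), without Gstm1, and 2 did at 28 weeks (2.15%). It was met by 4 for the difference (4.2%), 7 over age in HF/HF mice (4.02%) and 17 in LF/HF mice (7.03%). These last 3 lists were the same genes as without the block. The low-level filter dropped genes below the median level and left 38 transferases, so its percentages are shares of the genes kept. With it, 4 met the criterion at 12 weeks (3.52%), 1 at 28 weeks (2.42%) and 3 for the difference (4.4%). Over age 7 met it in HF/HF mice (5.65%) and 16 in LF/HF mice (11.3%).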

Other observations

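Some male-predominant genes spread more widely among HF/HF than among LF/HF mice. Slco1a1, an organic anion transporter of hepatocytes, ran from 7.60 over 9.67 to 10.07 in HF/HF and from 9.70 over 9.83 to 10.08 in LF/HF livers at 12 weeks. It ran from 7.67 over 9.30 to 9.92 in HF/HF and from 9.46 over 9.66 to 9.88 in LF/HF livers at 28 weeks. Cyp2d9, a steroid hydroxylase, had an SD of 0.65 among HF/HF mice, against 0.10 among LF/HF mice, at 12 weeks. The difference in spread was not tested.

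Of 10 PPARα targets 6 were above 0 and 4 below at 28 against 12 weeks in LF/HF offspring (median 0.32). Of these 10, 4 met the criterion upwards, against 3.31% of all genes. Cyp4a14, a fatty acid hydroxylase, had a log2 fold change of 1.59 (SE 0.47, adjusted p = 0.327) in HF/HF mice and 2.70 (SE 0.47, adjusted p = 0.00197 by limma) in LF/HF mice. At 12 weeks 7 of the 10 were above 0 (median 0.15). Of the 10, 2 met the criterion upwards, against 1.45% of all genes. They were Cyp4a10 at 0.66 (SE 0.28) and Cyp4a31 at 0.75 (SE 0.31), both higher in HF/HF offspring, and neither met it without the mice with muscle markers. The efflux transporters Abcc3, which carries glucuronides out of hepatocytes into blood, and Abcb1a were higher at 28 weeks in LF/HF offspring by 0.58 (SE 0.14) and 0.81 (SE 0.20), both past the adjusted threshold.

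The platform annotation names 4 further probe sets as transferases whose names in the table do not match the rule. They are Gstp3, Sult2a8, Sult3a2 and Sult6b2. None met the criterion in any of the 5 comparisons, and Sult2a8, at a mean log2 level of 9.94, had -0.24 (SE 0.14) at 28 weeks and -0.19 (SE 0.16) at 12 weeks for HF/HF minus LF/HF.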
